A study of Mus musculus with 23 samples.

Results

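Colony-stimulating factors and cytokines of the interleukin-6 (IL-6) family were followed in mouse lung epithelial cultures through 10 genes, taken by symbol from the 41073 genes of the 3 deposited count tables, and all 10 passed the filter on low counts in each comparison. In cultures given non-typeable Haemophilus influenzae (NTHi), which colonises the airways, 8 of the 10 genes were higher at day 4 and none was lower, where 20.1% of all genes tested were higher and 20.4% lower. The 10 genes were chosen with earlier results of these data known, so the shares over all genes are given for scale only. The strongest rise was that of Csf3, 26.9-fold, followed by Csf2 (8.35-fold), Csf1 (6.68-fold) and Il6 (5.02-fold). Osmr, Lif, Socs3 and Il11 rose between 1.85-fold and 2.92-fold, while Il34 and Il23a were not called, a call being an adjusted p below 0.05. Over the whole course from fresh cells to day 4 the 10 genes did not share a pattern: Il6 and Socs3 were high in fresh cells and low at airlift, and Il23a was lowest in fresh cells.

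The 23 libraries of bulk RNA came from lung epithelial cells of wild-type C57BL/6 mice selected for EpCAM, an adhesion protein of the epithelial surface, and grown on porous membranes with air above them. All groups share that origin, and 3 experiments, A, B and C, which the labels call batches, each held every group. Freshly isolated, untreated cells gave 3 libraries (1 per experiment), untreated cells on the day of airlift, when the upper face is brought to air, gave 6, and at day 4 there were 7 libraries without bacteria (controls) and 7 of NTHi-treated cultures. The sources used here state neither the age and sex of the mice nor the dose and schedule of NTHi. The labels do not say whether replicates came from separate animals or separate wells, and the p-values below therefore speak only of the spread between libraries, which may be technical.

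CSF-1 (from Csf1), GM-CSF (Csf2) and G-CSF (Csf3) are secreted proteins that sustain and activate macrophages, several myeloid lineages and neutrophils, and the lung epithelium is a known source of GM-CSF for alveolar macrophages. IL-6, LIF and IL-11 bind receptor complexes built on the shared chain gp130 (Il6st) and signal through JAK kinases to the factor STAT3, whose induced target Socs3 encodes an inhibitor of the same receptor. Osmr encodes the receptor chain that pairs with gp130 for oncostatin M, and Il23a encodes the p19 subunit of IL-23, a relative in the IL-12 family.

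The DNA before the start of 3 genes that rose with NTHi is shown because motifs of NF-kB and AP-1, factors known to act in the response to bacteria, matched there. Each run is the 250 bases before the start that RefSeq lists (build GRCm38.p6), read 5′ to 3′ on the strand of the gene, with motif matches in capitals. For Il6 (chr5:30012864-30013113, plus strand) the capitals mark, in order, an AP-1, a C/EBP and an NF-kB match. For Csf1 (chr3:107760470-107760719, minus strand) they mark an NF-kB match, and for Lif (chr11:4257318-4257567, plus strand) an AP-1 match.
Il6: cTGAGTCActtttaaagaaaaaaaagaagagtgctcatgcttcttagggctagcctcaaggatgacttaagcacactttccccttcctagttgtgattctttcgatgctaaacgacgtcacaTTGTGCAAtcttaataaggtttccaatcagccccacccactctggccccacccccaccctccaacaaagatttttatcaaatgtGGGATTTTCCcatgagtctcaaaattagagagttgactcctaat
Csf1: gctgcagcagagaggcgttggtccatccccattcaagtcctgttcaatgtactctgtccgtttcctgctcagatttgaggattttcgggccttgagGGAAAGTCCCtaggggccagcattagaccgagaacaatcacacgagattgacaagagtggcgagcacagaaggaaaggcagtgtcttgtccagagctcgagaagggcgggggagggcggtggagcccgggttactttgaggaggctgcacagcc
Lif: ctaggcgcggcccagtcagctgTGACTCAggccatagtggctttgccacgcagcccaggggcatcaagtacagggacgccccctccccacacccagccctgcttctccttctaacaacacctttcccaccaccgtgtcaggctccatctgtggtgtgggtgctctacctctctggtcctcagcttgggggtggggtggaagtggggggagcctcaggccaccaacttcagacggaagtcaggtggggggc

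Motifs were searched on both strands as TGANTCA for AP-1, TTNNGNAA for C/EBP and TTCNNNGAA for STAT factors, and by the usual consensus for NF-kB. Matches in the runs shown do not overlap each other. The NF-kB match of Il6 lies 44 to 35 bases before the start and that of Csf1 154 to 145 bases before it. Of the 10 genes, 7 were in the promoter table, and besides those shown Il11 held an AP-1 match at 1 of 2 listed starts and the Osmr window held none of the motifs. For Csf2 (1 C/EBP match) and Socs3 (1 STAT match) the bases after the listed start were in no GENCODE transcript of the gene, and those windows are not shown. Among all 32851 promoters of the table, 3.9% held the NF-kB motif, 6.75% the AP-1 motif, 7.02% the STAT motif and 36.8% the C/EBP motif. A match describes the letters only. Csf3, Il34 and Il23a were not in the table.

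Libraries held 32323375 to 39081663 counts, and levels are given as CPM, counts brought to the same scaled total in every library. Summed CPM of 9 epithelial genes, Epcam and Cdh1 among them, lay between 5931 and 9072 in every library. Genes of other cells were present too: the sum of 15 macrophage and monocyte genes lay between 19660 and 26420 CPM in fresh cells, 3683 and 4226 at airlift, 6364 and 13540 in day 4 controls and 2623 and 6628 with NTHi, its largest part from the lysozyme gene Lyz2, and none of the 15 was at 0 in every library of a group. The sum of 10 neutrophil genes was between 343.8 and 726.4 CPM in controls and 1332 and 2053 with NTHi, mostly Ltf, which epithelia also express, and Mpo, Elane and Cxcr2 had no count in the NTHi libraries. The 11 mesenchymal genes summed to between 21.17 and 35.4 CPM in fresh cells, 204.5 and 509.5 in controls and 198.4 and 541 with NTHi. The sums of 13 lymphocyte and 12 endothelial genes were 75.87 to 138.7 and 30.04 to 51.06 CPM in controls, and 31.53 to 88.59 and 16.93 to 25.88 with NTHi. In experiment C, control replicate 1 and NTHi replicate 3 stood apart from their peers, with a chi-square per degree of freedom over genes of 41.4 to 86.3 against 8.83 and 14.3 among the peers. These libraries had the lowest macrophage sums of their groups (6364 and 2623 CPM) and the highest mesenchymal sums (509.5 and 541 CPM). Fewer cells of a type and less RNA per cell cannot be told apart in bulk RNA, and what these cells contributed to the levels below was not tested.

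**Figure D1:**
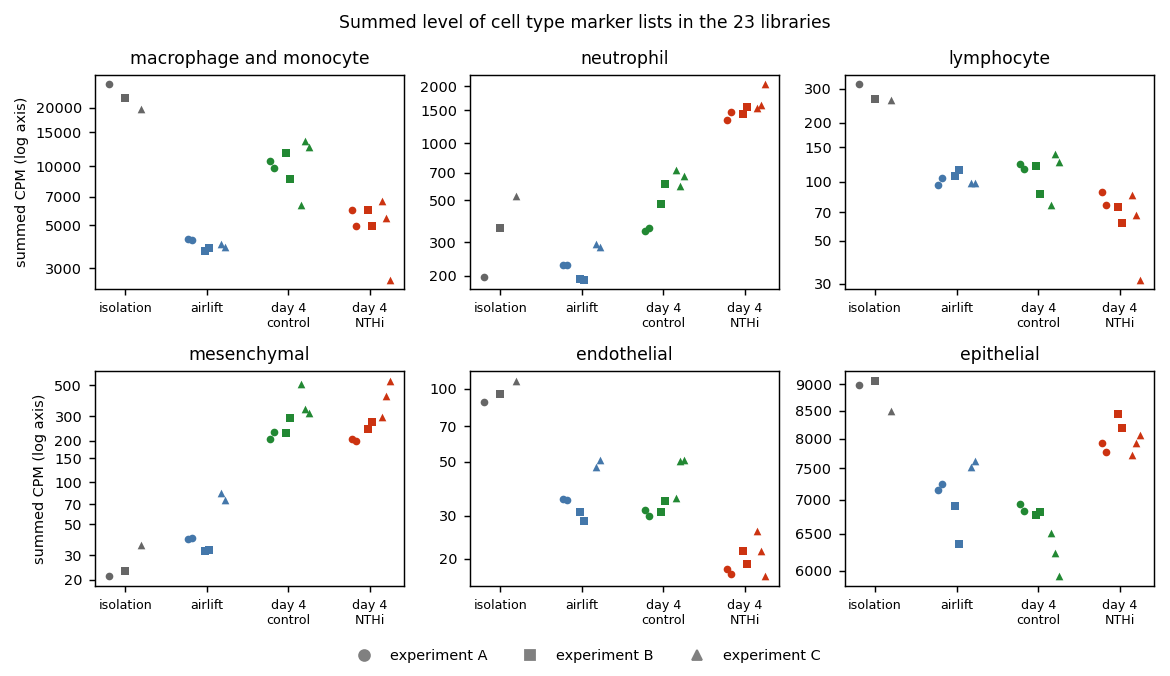
Summed CPM (log axis) of 6 lists of cell type markers in each of the 23 libraries, by group, with the symbol giving the experiment. The macrophage sum ran from 6364 to 13540 CPM in controls and from 2623 to 6628 CPM with NTHi, and its lowest point in each of these groups was an experiment C library. Lyz2 is the largest part of that sum, and single genes of the list were called in both directions with NTHi.

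The first comparison asked how NTHi changed these genes at day 4. By edgeR's quasi-likelihood test (adjusted p below 0.05) the day 4 NTHi cultures had 8 of the 10 genes higher and 0 lower, beside 20.1% higher and 20.4% lower (40.5% called) of all 16337 genes tested. The median log2 change of the 10 genes was 1.30, and that of all genes tested was 0.00. Because the genes were chosen with earlier results known, these contrasts are a description only. When the libraries were scaled by their totals alone, the calls over all genes split into 2282 higher and 4416 lower instead of 3281 and 3338, with the median of all genes at -0.06. The same 8 genes were still called higher, and Il34 (-0.21, adjusted p = 0.017) and Il23a (-0.30, adjusted p = 0.043) were then called lower. Without the libraries that stood apart, 8 of the 10 genes and 6816 of all genes were called.

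**Figure D2:**
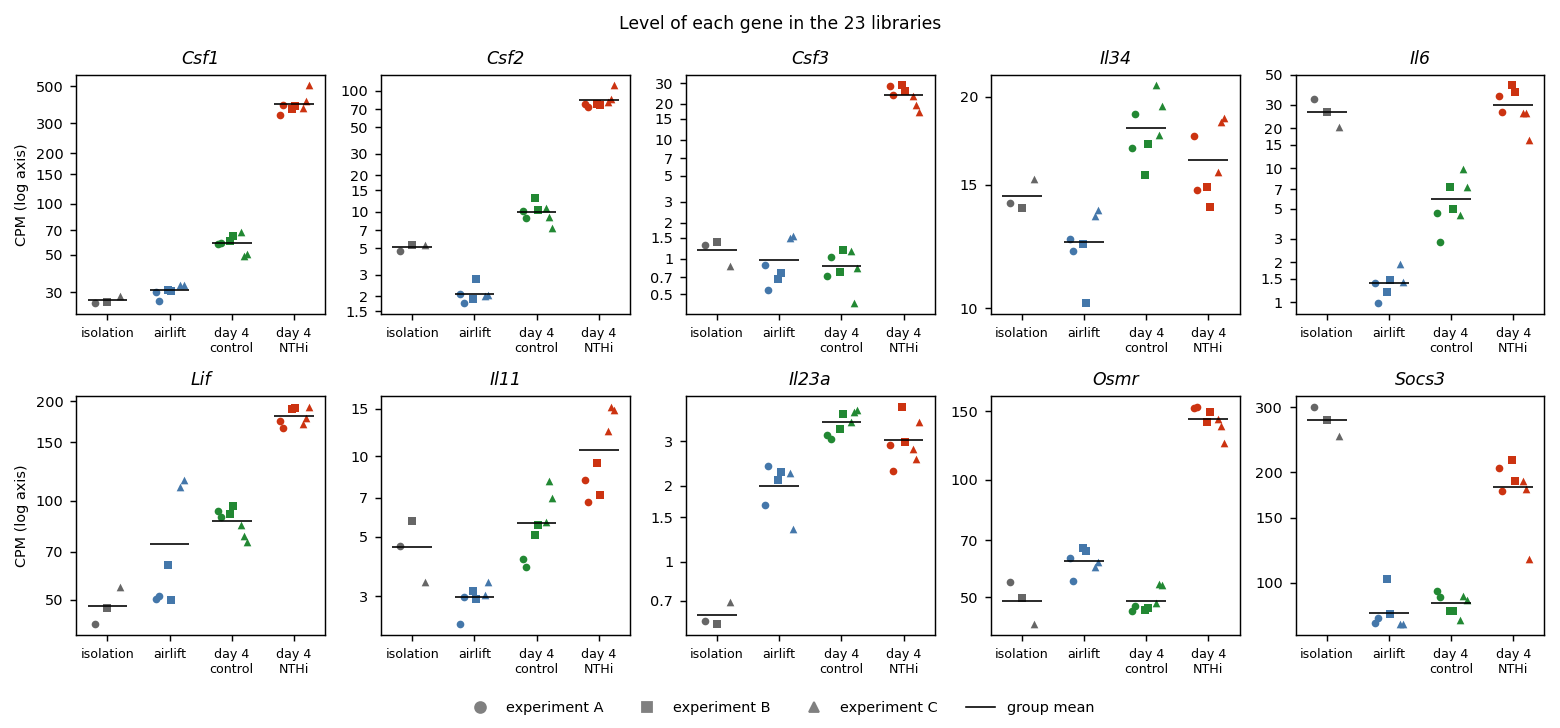
CPM (log axis) of the 10 genes in the 23 libraries, by group, with the symbol giving the experiment and the line the group mean. For Csf1, Csf2, Csf3, Il6, Lif, Osmr and Socs3 the points of the day 4 NTHi cultures lie above those of the day 4 controls.

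Csf3, which encodes the main growth factor of neutrophils, lay at 0.421 CPM in the lowest control library, 0.83 in the median and 1.19 in the highest, and with NTHi at 17.3, 23.7 and 28.7 CPM. Every NTHi library was far above every control. The log2 change was 4.75 ± 0.16 (SE; adjusted p = 5.1e-12), which ranked 27 of the 16337 genes from the highest. The control level rested on 17 to 49 counts per library, so it is less precise than the NTHi level, which rested on 676 to 1097.

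Csf2, the gene for GM-CSF, went from a lowest, median and highest control value of 7.36, 10.1 and 13.0 CPM to 73.1, 77.5 and 110 CPM with NTHi. The groups did not overlap, and 6 of the 7 NTHi libraries fell between 73.1 and 84.9 CPM, with NTHi replicate 3 of experiment C above them. The log2 change was 3.06 ± 0.11 (adjusted p = 2.2e-11), and it was 3.01 without the libraries that stood apart. Csf1, whose product maintains macrophages, was at 49.5, 58.4 and 68.5 CPM in the lowest, median and highest control library and at 335, 379 and 504 CPM with NTHi. Again no values overlapped, and the highest was once more NTHi replicate 3 of experiment C. Its log2 change was 2.74 ± 0.09 (adjusted p = 7.8e-12), or 2.72 without the libraries that stood apart. NTHi replicate 3 of experiment C had the lowest macrophage sum and the highest mesenchymal sum of all 23 libraries. What either contributed to these levels was not tested.

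Il34, which encodes a second ligand of the CSF-1 receptor, differed little at day 4 between cultures with and without NTHi. It lay at 15.5, 17.7 and 20.8 CPM in the lowest, median and highest control library and at 13.95, 15.7 and 18.7 CPM with NTHi. The ranges overlapped widely, and the log2 difference of -0.15 ± 0.06 was not called (adjusted p = 0.062). The call was near its limit: it was made without control replicate 1 of experiment A (-0.17), NTHi replicate 1 of experiment A (-0.18) or control replicate 2 of experiment C (-0.18).

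Il6 was at 2.85, 4.95 and 9.94 CPM in the lowest, median and highest control library and at 16.2, 26.5 and 41.7 CPM with NTHi. The groups did not overlap, although both spread widely. The log2 change was 2.33 ± 0.24 (adjusted p = 1.8e-06). Within experiment C the libraries that stood apart had the lowest Il6 of their groups, 4.51 CPM against 7.24 and 9.94 in the other controls and 16.2 CPM against 25.8 and 26.1 with NTHi. These libraries also had the lowest macrophage sums and the highest mesenchymal sums of their groups, and what either contributed to Il6 was not tested. Without these libraries the log2 change was 2.41.

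Lif, which encodes leukemia inhibitory factor, lay at 74.7, 89.3 and 96.1 CPM in the lowest, median and highest control library and at 166, 177 and 193 CPM with NTHi. These were tight, separate ranges, with a log2 change of 1.06 ± 0.05 (adjusted p = 3e-10). Il11, which encodes another ligand of gp130, was lower in experiments A and B than in C in both groups, at 3.86, 5.53 and 8.08 CPM in controls and 6.76, 9.40 and 15.3 CPM with NTHi (lowest, median and highest). The groups overlapped, since 2 of the 7 NTHi libraries lay below the highest control of experiment C. Within each experiment every NTHi library was above every control, and the log2 change was 0.89 ± 0.10 (adjusted p = 5.4e-06). Il23a was at 3.07, 3.59 and 4.00 CPM in controls and 2.29, 2.90 and 4.13 CPM with NTHi (lowest, median and highest), with overlapping ranges. Its log2 difference of -0.24 ± 0.11 was not called (adjusted p = 0.10), but it was called at -0.32 without NTHi replicate 1 of experiment B, the highest of its group.

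Osmr, the receptor chain among the 10 genes, was at 46.2, 47.4 and 54.2 CPM in the lowest, median and highest control library and at 124, 143 and 154 CPM with NTHi. The lowest NTHi library, replicate 3 of experiment C, was still well above the highest control. The log2 change was 1.54 ± 0.06 (adjusted p = 1.9e-11). Socs3, the feedback inhibitor of gp130 signalling, lay at 79.3, 89.8 and 95.1 CPM in controls and at 116, 189 and 216 CPM with NTHi (lowest, median and highest). The groups were separate, and the value of 116 belonged to the same library, while the other 6 ranged from 178 to 216 CPM. Its log2 change was 1.04 ± 0.10 (adjusted p = 6.5e-07), and 1.11 without the libraries that stood apart.

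**Figure D3:**
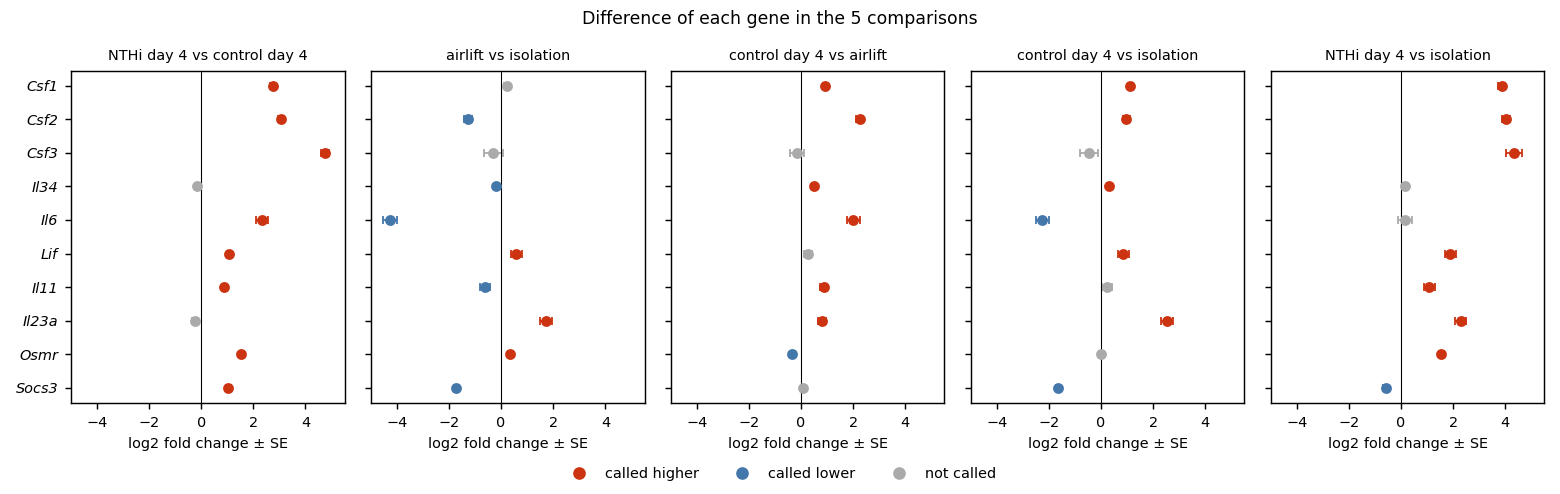
Log2 fold change of the 10 genes in the 5 comparisons, with bars of 1 SE and colours for genes called higher, called lower or not called by the edgeR quasi-likelihood test at an adjusted p below 0.05. With NTHi against day 4 control 8 genes are called higher, and the comparisons with fresh cells hold calls in both directions.

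Each experiment alone called the same 8 genes higher, where 20.4% of all genes were called in experiment A, 18.4% in B and 15.9% in C. Csf1 rose by 2.62 ± 0.10, 2.58 ± 0.08 and 2.92 ± 0.17 on the log2 scale in A, B and C, and Csf3 by 4.87 ± 0.19, 4.78 ± 0.18 and 4.63 ± 0.31. Il6 rose by 3.04 ± 0.21 in A, 2.69 ± 0.16 in B and 1.65 ± 0.31 in C, the widest spread of the 8. Osmr rose by 1.70 ± 0.08, 1.63 ± 0.07 and 1.37 ± 0.08. Csf2 rose by 2.98 ± 0.10, 2.72 ± 0.11 and 3.34 ± 0.17, and Lif by 0.89 ± 0.08, 1.02 ± 0.07 and 1.18 ± 0.07. A test of the difference between experiments called no gene with edgeR (0 of 16337, with 675 at an unadjusted p below 0.05) and 5 (0.0306%) with DESeq2, none of them among the 10. Of the 8 genes, Osmr (0.012), Il6 (0.019), Lif (0.032) and Csf2 (0.043) had an unadjusted p below 0.05 with edgeR, each with an adjusted p of 1. For Il6 the adjusted p was 0.44 with DESeq2.

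**Figure D4:**
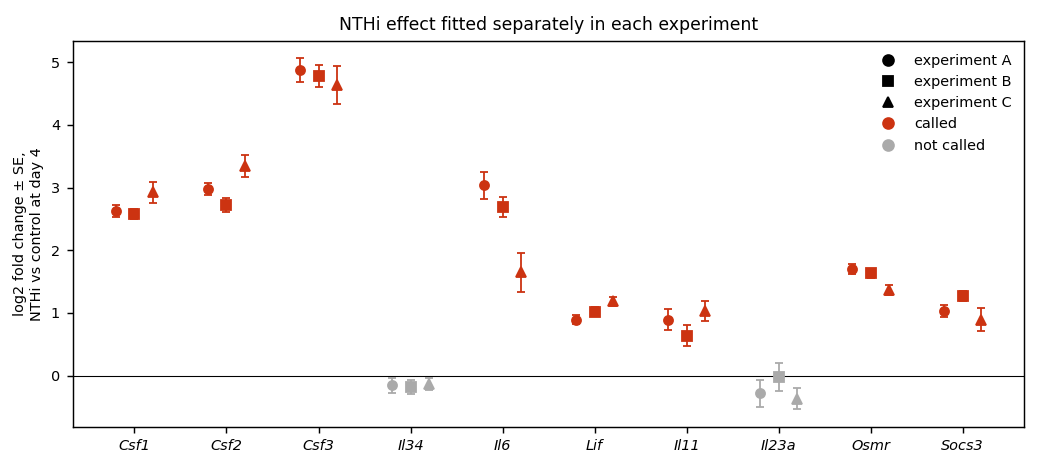
Log2 fold change of each gene, NTHi against day 4 control, fitted separately in experiments A, B and C (symbols), with bars of 1 SE. The 8 genes that rose are called in each experiment, and Il6 ranges from 1.65 in C to 3.04 in A.

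Receptors, signalling genes and targets were read from lists of genes known for these roles. Of 7 receptor genes for colony-stimulating factors and IL-34, 1 was higher, 1 was lower and 5 were not called, with a median log2 difference of 0.03. Over all genes tested 20.1% were higher and 20.4% lower (40.5% called). Csf2ra, the GM-CSF receptor alpha chain, fell by 0.68 ± 0.16, from 89.4 ± 12.4 to 55.8 ± 14 CPM (SD, n = 7 each), with overlapping ranges. Ptprz1, a phosphatase that binds IL-34, rose by 0.28 ± 0.08, a call lost with scaling by totals (0.22), with no term for experiment (0.28) and without experiment A (0.27) or C (0.27). The common beta chain Csf2rb (0.02 ± 0.23), Csf2rb2 (0.15 ± 0.23), Csf1r (-0.29 ± 0.22), Csf3r (0.54 ± 0.28) and the IL-34-binding proteoglycan Sdc1 (0.03 ± 0.07) were not called. Csf2rb had its lowest NTHi value, 140 CPM, against a median of 395 CPM, and Csf1r its lowest, 26.3 against 70.9 CPM, and without the libraries that stood apart Csf3r (0.68) and Csf2rb2 (0.24) were called higher. Csf1r is a macrophage gene and on the macrophage list, so its level cannot be told apart from that of the list. Csf3r is likewise on the neutrophil list. What macrophages and other myeloid cells contributed to the fall of Csf2ra and to the other receptor levels was not tested.

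Of 9 tested receptor genes of the IL-6 and IL-12 families, 3 rose, 2 fell and 4 were not called, with a median of -0.27, where 20.1% of all genes rose and 20.4% fell. Those that rose were Lifr, the partner of gp130 for LIF, by 0.98 ± 0.18, gp130 itself (Il6st) by 0.47 ± 0.06 and Il6ra by 0.29 ± 0.08. Il6st went from 156 ± 17.9 to 217 ± 28.3 CPM and Lifr from 3.73 ± 0.880 to 7.35 ± 1.71 CPM (SD, n = 7 each). The ranges of all 3 overlapped between the groups, and Il6ra was not called without experiment B (0.21). Cntfr, the receptor chain for ciliary neurotrophic factor, fell by 1.91 ± 0.21, from 2.46 ± 0.328 to 0.663 ± 0.235 CPM without overlap, and Il12rb2 by 0.85 ± 0.21. Il11ra1 (-0.20 ± 0.13), Il27ra (-0.42 ± 0.24), Il31ra (-0.76 ± 0.45) and Il12rb1 (-0.27 ± 0.21) were not called, and the IL-23 receptor Il23r was below the filter, with 2 to 8 counts in each NTHi library.

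Among 8 tested ligands of the same families outside the 10 genes, 4 rose, 1 fell and 3 were not called, with a median of 0.34. Of all genes tested 20.1% rose and 20.4% fell. Il12a, which encodes the p35 subunit shared by IL-12 and IL-35, rose by 3.19 ± 0.40, from 0.185 ± 0.155 to 1.68 ± 0.634 CPM (SD, n = 7 each). At 2 to 20 counts per control library its level there is imprecise, but the groups did not overlap. Clcf1, a cardiotrophin-like ligand, rose by 0.63 ± 0.06 and Ctf1, which encodes cardiotrophin, by 0.23 ± 0.06. Ctf1 was not called with scaling by totals (0.17) or without experiment B (0.23) or C (0.16).

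Downstream, 3 of 11 JAK kinases and STAT factors rose and none fell (median 0.06), a share near the 20.1% of all genes called higher. Among them were Jak2 (0.25 ± 0.04) and Stat2 (0.50 ± 0.08), neither of which overlapped between groups. Tyk2 (-0.08 ± 0.04) was not called, but fell with scaling by totals (-0.14). Stat3, named here after its value was seen, differed by 0.06 ± 0.04 and was not called. Of 12 further feedback inhibitors 4 rose and 2 fell, with a median of 0.05, a share near the 40.5% called over all genes. The smallest of these rises, that of Ptpn11 (0.09 ± 0.03, named after its value was seen), was lost in 8 alternative fits, with scaling by totals (0.03) among them. Socs2 rose by 0.62 ± 0.04 and the phosphatase Ptpn2 by 0.52 ± 0.08, and Pias1, an inhibitor of STAT signalling, fell by 0.54 ± 0.04 and the phosphatase Ptpn6 by 0.60 ± 0.09.

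Genes known as targets of STAT3, a list drawn up with earlier results of these data known, were higher in 12 of 15 tested and lower in 2. Over all genes tested 20.1% were higher and 20.4% lower. The median of the list was 0.47, beside 0.00 over all genes. The largest rises were those of the acute-phase genes Saa3, by 6.47 ± 0.29, and Lrg1, by 3.47 ± 0.10, and of the transcription factor Cebpd, by 2.01 ± 0.07. Timp1, an inhibitor of matrix proteases, rose by 1.04 ± 0.07 with overlapping ranges. Saa3 is also known as a target of NF-kB. The counts were the same without the libraries that stood apart. The rise of Myc was lost without experiment B (0.32). The fall of Mcl1 was lost with counts summed by experiment and group (-0.13) and without experiment C (-0.09). Myc and Mcl1 were named after their values were seen. Of 10 genes that control the decay or stability of cytokine mRNAs 6 rose and none fell (median 0.15), beside 20.1% and 20.4% of all genes. The smallest of these rises, those of Rc3h1 (0.14) and Khsrp (0.15), were lost without experiment B (0.16 and 0.14). Both genes were named after their values were seen. The ribonuclease gene Zc3h12a, whose product degrades Il6 mRNA, rose from 27.3 ± 3.02 to 227 ± 11.5 CPM (SD over 7 libraries each), or by 3.06 ± 0.05 on the log2 scale. Arid5a, whose product protects Il6 mRNA, rose by 0.32 ± 0.04, Zfp36l1 by 0.35 ± 0.06 and Hnrnpd by 0.25 ± 0.04. With scaling by totals the count for this list was 4 of 10.

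**Figure D5:**
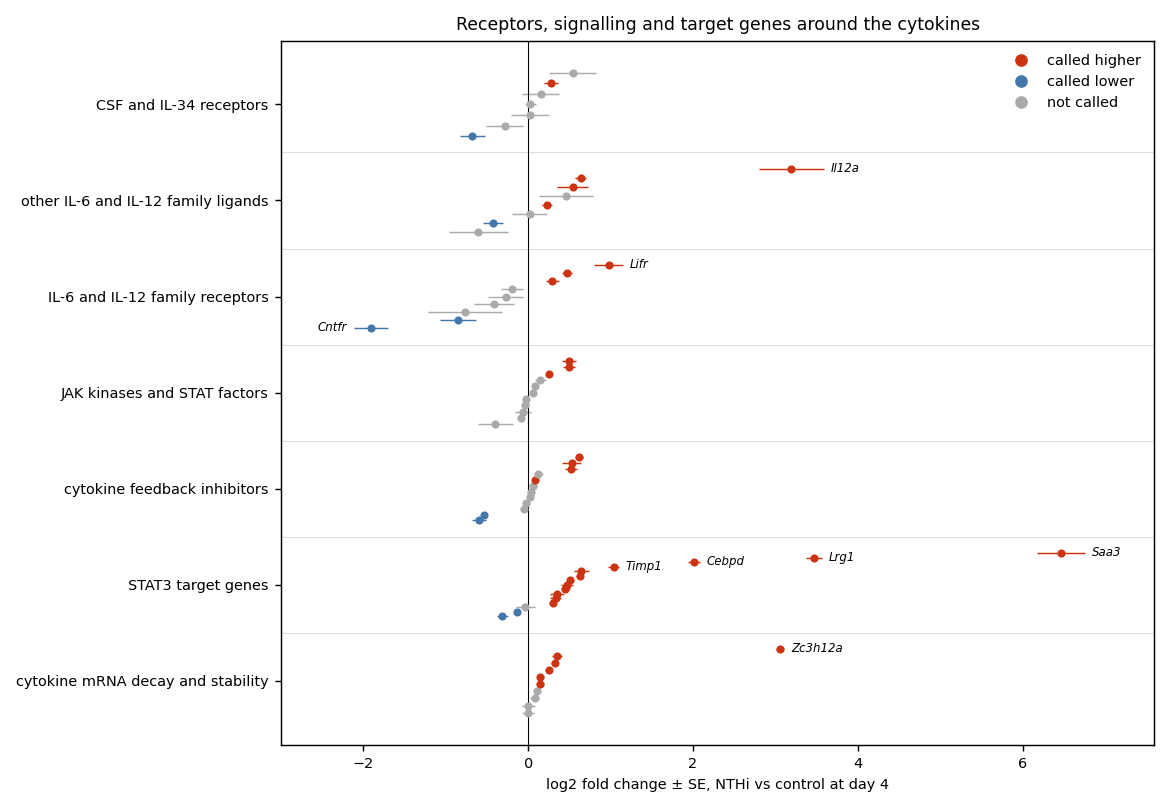
Log2 fold change, NTHi against day 4 control, of the tested genes of 7 lists around the cytokines, with bars of 1 SE and colours for the calls. Most receptor, JAK and STAT genes lie within 1 of 0, while Saa3, Lrg1, Il12a and Zc3h12a lie above 3.

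The untreated groups show how the same genes stood without NTHi. From fresh cells to airlift 3 of the 10 genes rose and 5 fell, where 37.9% of 18302 genes rose and 36.7% fell (74.6% called). The median log2 change was -0.25 for the 10 genes and 0.00 for all genes. Scaling mattered here: by totals alone 10131 genes were higher and 4223 lower, instead of 6928 and 6718, and the median of all genes was 0.49, so changes are relative to the bulk of genes. Il6 was at 32.7, 26.3 and 20.3 CPM in the fresh libraries of A, B and C and between 0.986 and 1.95 CPM at airlift (median 1.42). No airlift library came near a fresh one, and the log2 change was -4.26 ± 0.27 (adjusted p = 7.3e-11), with only 1.84% of genes lower. Socs3 was at 302, 277 and 251 CPM in the fresh libraries and 77.0, 78.7 and 102 CPM at airlift (lowest, median and highest). It fell by 1.72 ± 0.08 (adjusted p = 9.4e-13), and all airlift libraries were below all fresh ones.

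Csf2 was at 4.75, 5.26 and 5.27 CPM in fresh cells and at 1.75, 2.02 and 2.77 CPM at airlift (lowest, median and highest). The groups were apart, with a log2 change of -1.28 ± 0.15 (adjusted p = 3.1e-07). Il11 went from 4.60, 5.72 and 3.40 CPM in the fresh libraries of A, B and C to between 2.35 and 3.39 CPM (log2 change -0.62 ± 0.19, adjusted p = 0.0065). This rested on experiments A and B, where the log2 ratios were -0.79 and -0.91 against -0.08 in C. The call was lost with scaling by totals (-0.13), without experiment A (-0.53) or B (-0.46), and without the fresh library of A (-0.46) or B (-0.44). Il34, at 14.1, 13.9 and 15.3 CPM in fresh cells and 10.2, 12.4 and 13.8 CPM at airlift (lowest, median and highest), was called lower by 0.20 ± 0.08 (adjusted p = 0.03). With scaling by totals it was called higher, at 0.28, so its direction depends on the scaling. The call was also lost with no filter on low counts (-0.16), with no term for experiment (-0.20), with counts summed by experiment and group (-0.16), without experiment A (-0.21) or B (-0.17), without the fresh library of A (-0.21) or B (-0.17), and without airlift replicate 2 of A (-0.20) or B (-0.17).

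Il23a rose over the same step. It was at 0.584, 0.565 and 0.693 CPM in fresh cells, on 16 to 20 counts, and at 1.34, 2.18 and 2.39 CPM at airlift (lowest, median and highest). All airlift libraries were higher, and the log2 change was 1.72 ± 0.23 (adjusted p = 1.6e-06). Osmr, at 54.8, 49.7 and 42.6 CPM in the fresh libraries and 55.2, 62.2 and 66.8 CPM at airlift (lowest, median and highest), rose by 0.35 ± 0.09 (adjusted p = 0.0011). Lif depended on the experiment. It was at 42.2, 47.3 and 54.7 CPM in the fresh libraries of A, B and C, and at airlift at 50.5 and 51.4 CPM in A, 63.9 and 50.1 in B, and 110 and 116 in C. The called rise of 0.59 ± 0.21 (adjusted p = 0.016) thus held log2 ratios of 0.27 in A, 0.27 in B and 1.04 in C, and was not called without the fresh library of C (0.56). Csf1 (0.21 ± 0.09, adjusted p = 0.054) and Csf3 (-0.30 ± 0.36, adjusted p = 0.45) were not called. With scaling by totals Csf1 was called higher at 0.69, and it was also called with no filter (0.25), with summed counts (0.25), without experiment C (0.19) or without airlift replicate 2 of A (0.24). Without experiment C, where its 2 airlift libraries were the highest, Csf3 was called lower at -0.91.

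Receptors of the IL-6 and IL-12 families fell at airlift in 8 of 10 genes, with none higher and a median of -1.10. Over all genes tested 37.9% rose and 36.7% fell. Lifr fell by 3.93 ± 0.17, from 42.5 ± 4.60 (SD, n = 3) to 2.78 ± 0.608 CPM (SD, n = 6), Cntfr by 3.23 ± 0.16, Il12rb1 by 3.12 ± 0.20 and Il6ra by 1.76 ± 0.09. These 4 kept their calls with scaling by totals, while Il6st (-0.56 ± 0.09), Il11ra1, Il31ra and Il12rb2 did not. Of 7 receptor genes for colony-stimulating factors, Csf2ra (-0.68 ± 0.10), Csf3r (-1.12 ± 0.17) and Ptprz1 (-2.62 ± 0.17) fell and none rose, but by totals alone 4 rose and 2 fell. STAT3 targets fell in 14 of 17 tested genes and rose in 2, with a median of -1.67, and in 12 and 2 by totals alone. Lrg1 was among the largest falls (-5.17 ± 0.14), and Timp1 moved the other way (4.26 ± 0.23). Zc3h12a fell by 2.51 ± 0.07. Over the same step the macrophage sum went from at least 19660 to at most 4226 CPM. Its largest part was Lyz2, with a mean of 20980 CPM in fresh cells and 2434 at airlift. Of the other listed genes some were lower at airlift, such as Mrc1 (187 and 70.1 CPM), and some higher, such as Marco (53.4 and 120 CPM). What macrophages contributed to the falls of receptors and targets was not tested.

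Between airlift and day 4 without bacteria, 6 of the 10 genes rose and 1 fell, where 26.9% and 27.7% of all genes did (54.5% called). The median log2 change was 0.66 for the 10 genes and -0.02 for all. Csf2 rose from between 1.75 and 2.77 CPM to between 7.36 and 13.0 CPM without overlap, by 2.24 ± 0.12 (adjusted p = 3.5e-11). Il6 rose by 2.01 ± 0.24 (adjusted p = 1.3e-06), from at most 1.95 CPM to at least 2.85 CPM. Csf1 rose by 0.92 ± 0.07 (adjusted p = 6e-09), from between 26.7 and 33.1 CPM to between 49.5 and 68.5. Both Csf2 and Csf1, the growth factors of macrophages, thus also rose without NTHi. The macrophage sum was higher as well, at least 6364 CPM against at most 4226. This was mostly Lyz2, with a mean of 2434 CPM at airlift and 8327 in controls. Other listed genes went either way: Marco was higher (120 and 393 CPM), while Ear2 (138 and 70.4) and C1qa (16.5 and 8.4) were lower. What macrophages contributed to the rises was not tested.

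Smaller rises over that step were those of Il11 (0.86 ± 0.15), Il23a (0.81 ± 0.14) and Il34 (0.51 ± 0.06), each without overlap between groups. Osmr fell by 0.35 ± 0.07, from between 55.2 and 66.8 CPM to between 46.2 and 54.2 CPM (adjusted p = 0.00019). Lif was not called at 0.26 ± 0.16 (adjusted p = 0.16), with log2 ratios of 0.84 in A, 0.71 in B and -0.51 in C, and was called at 0.28 with no filter on low counts, at 0.77 without experiment C and at 0.38 without airlift replicate 2 of C. Socs3 (0.09 ± 0.07) was not called, but was called at 0.20 without experiment B and at 0.15 without airlift replicate 1 of B. Csf3 (-0.16 ± 0.28) was not called. Receptors of the IL-6 and IL-12 families rose in 5 of 10 genes and fell in 1, Il6ra (-0.96 ± 0.08), and STAT3 targets rose in 11 of 17 and fell in 2. Over all genes tested 26.9% rose and 27.7% fell. The rise of Lifr was not called without experiment C (0.13) or with summed counts (0.41). Il12rb1 lost its call with no term for experiment (0.52), with summed counts (0.59) and without experiment A (0.41). For Il12rb2 it was lost without experiment A (0.40) or B (0.45). Among STAT3 targets the rises of Bcl3 and Bcl6 and the fall of Fos were lost without experiment A or B. These targets were named after their values were seen.

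Against fresh cells, day 4 controls were higher for 5 of the 10 genes and lower for 2, where 76.6% of genes were called, 38.8% higher and 37.7% lower (7108 and 6904 genes), or 10149 and 4497 by totals alone. The 10 genes had a median of 0.27 and all genes one of 0.02, or 0.49 by totals alone. Il23a rose most, by 2.53 ± 0.22 (adjusted p = 6.5e-09), from 0.614 ± 0.0694 (SD, n = 3) to 3.57 ± 0.374 CPM (SD, n = 7). Csf1 rose by 1.12 ± 0.09, Csf2 by 0.97 ± 0.14, Lif by 0.85 ± 0.20 and Il34 by 0.31 ± 0.08. Il6 fell by 2.25 ± 0.24 (adjusted p = 9.6e-08) and Socs3 by 1.64 ± 0.08 (adjusted p = 1.1e-12). Csf3 (-0.46 ± 0.35), Il11 (0.24 ± 0.19) and Osmr (0.00 ± 0.08) were not called, but Il11 (0.72) and Osmr (0.48) were called higher by totals alone.

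NTHi cultures at day 4 were higher than fresh cells for 7 of the 10 genes and lower for 1, where 77.5% of 18586 genes were called, 39% higher and 38.5% lower (7242 and 7161 genes), or 9770 and 5045 by totals alone (median 0.42). NTHi and control share the fresh libraries as their reference, so these values stand beside those above and are not separate evidence. Csf3 (4.33 ± 0.30), Csf2 (4.02 ± 0.16) and Csf1 (3.86 ± 0.12) rose most. Il23a (2.29 ± 0.22), Lif (1.89 ± 0.20), Osmr (1.55 ± 0.08) and Il11 (1.09 ± 0.20) rose less. The rise of Il11 held log2 ratios of 0.70 in A, 0.53 in B and 2.06 in C. Il6 with NTHi, at 29.8 ± 8.64 CPM (SD, n = 7), lay in the range of fresh cells, at 26.4 ± 6.22 CPM (SD, n = 3), with a log2 difference of 0.16 ± 0.26 that was not called (adjusted p = 0.59) but was called at 0.57 by totals alone. Socs3 with NTHi stayed lower than in fresh cells, by 0.59 ± 0.11 (adjusted p = 2.8e-05), although by totals alone the fall of 0.18 was not called (adjusted p = 0.12). Il34 was not called (0.15 ± 0.08, adjusted p = 0.089), but was called higher by totals alone (0.57), with counts summed by experiment and group (0.20) and without NTHi replicate 1 of experiment C (0.17).

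In order of group mean, Csf1 stood lowest in fresh cells (26.9 ± 1.41 CPM), then at airlift (30.7 ± 2.35), in day 4 controls (58.5 ± 6.80) and with NTHi (393 ± 54.0), and only the first neighbours were not called apart. Csf2 stood lowest at airlift (2.09 ± 0.354 CPM), then in fresh cells (5.09 ± 0.299), controls (9.91 ± 1.74) and NTHi (82.9 ± 12.6), with each step called. Il6 and Socs3 were high both in fresh cells and with NTHi and lower between, while Csf3 was near 1 CPM in the 3 untreated groups (1.19 ± 0.278, 0.980 ± 0.429 and 0.875 ± 0.274 CPM), none of which were called apart. Il34 kept the narrowest range, with experiment-by-group means within 0.75 on the log2 scale, against 5.25 for Csf2. Errors in this paragraph are SD, with n = 3, 6, 7 and 7 for fresh cells, airlift, control and NTHi.

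The genes whose levels ran closest to each of the 10 were found over the 12 means of experiment and group, by the mean absolute difference of centred log2 CPM among 12688 genes. Nearest to Csf1 were Fndc4 (0.21) and the death ligand gene Tnfsf10 (0.24), and nearest to Csf2 the complement protease gene C1s1 (0.32) and the nucleoside transporter gene Slc28a3 (0.42). Csf3 had no gene as near, with the collagenase gene Mmp8 at 0.42 and the endotoxin co-receptor gene Cd14 at 0.48. Il6 was followed by Lbp, whose product binds endotoxin (0.30), at 129, 8.83, 35.9 and 152 CPM in fresh, airlift, control and NTHi cells, and by the chemokine gene Ccl3 (0.42). For Lif they were Bmf (0.15) and Fut2 (0.18), for Il11 Gcnt2 (0.19) and Akap12 (0.22), for Osmr Lacc1 (0.15) and Tjp3 (0.17), and for Socs3 Slain1 (0.14) and Rnf144b (0.14). Ano10 and Zmym3 (both 0.07) were nearest to Il34, and B4gat1 and Mlh3 (both 0.12) to Il23a. The 12 means share libraries and scaling, and the likeness is a description only.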

How the data were processed

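Bulk RNA sequencing of 23 libraries was deposited by the authors as 3 tables, 1 per experiment, of raw counts per gene symbol, whole numbers that are not normalised. Per the submitters' processing notes STAR and DESeq2 were used with the GRCm39 genome; the sources used here do not give the counting tool, its strand setting or versions. Of 41098 lines per table, 25 fragments of broken lines (at most 0.082% of counts) were left out. Among counts below 20, 69.3% to 74.9% were even, and halved counts were tried as an alternative. Replicates within an experiment were compared in 13 pairs, and in all of them the difference was larger than sampling noise (chi-square per degree of freedom 2.97 to 86.3).

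Groups came from the labels. Tests used edgeR 4.0.16 in R 4.3.3: filterByExpr with a minimum count of 10, TMM scaling (factors 0.741 to 0.770 in fresh cells and 0.984 to 1.10 elsewhere), and a quasi-likelihood F-test with group and experiment as terms and Benjamini-Hochberg adjustment over all genes at 0.05. NTHi against control used the 14 day 4 libraries, comparisons among untreated groups 16 libraries, and NTHi against fresh cells all 23. The SE of a log2 fold change is its size over the square root of F, and the CPM printed use TMM totals of all libraries. On simulated counts for NTHi against control (16193 genes) 70%, 92.4% and 98.3% of genes changed by 0.5, 1 and 2 on the log2 scale were found, with 11 false calls among 15997 unchanged genes. The shares found were lower for airlift against fresh cells (17972 genes), at 48.2%, 75% and 92.9%, and for NTHi against fresh cells (18165 genes), at 57.9%, 80% and 94%. Each simulation set 200 genes to change and held no difference between experiments. Far more genes were called in the data, so these shares need not hold there.

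The 10 genes and all lists were chosen with earlier results of these data known. Besides the 10, the text names each receptor gene tested, up to 4 genes with the smallest p with NTHi per list, and 2 nearest genes by pattern (pseudocount 0.5, average log2 CPM of at least 1). Some cell type markers were named after their values were seen. Alternatives were DESeq2 1.42.0, its size factors, scaling by totals, no filter, halved counts, a fit without experiment, sums over each experiment's libraries of a group, leaving out each experiment or library, a replicate block and, chosen after seeing the data, the fit without the 2 libraries that stood apart. Gene coordinates of the tables' build were not used here, and overlapping or antisense genes cannot be told apart without strand. Results of 2 genes of the lists are not reported here.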

Additional observations from a re-analysis of the deposited data

Results flagged for a closer look

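Among the 10 genes in groups of 4 to 10 libraries, 30 sets of values were examined for a library far from the others, and 4 had one. The rule used flags about 1 in 20 sets of independent normal values. These sets pool 3 experiments and share libraries, so that rate need not hold here. Csf2 was at 2.765 CPM in airlift replicate 2 of experiment B, above the other 5 airlift libraries. Csf2 was also at 110.3 CPM in NTHi replicate 3 of experiment C, above the other 6 NTHi libraries. Socs3 was at 102.3 CPM in airlift replicate 1 of experiment B, above the other airlift libraries, and at 116.2 CPM in NTHi replicate 3 of experiment C, below the other NTHi libraries. That last library also had the lowest macrophage sum (2623 CPM) and the highest mesenchymal sum (541 CPM) of all libraries, and the part of either in its values was not tested.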

How the results depend on the processing

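For NTHi against control the 8 calls among the 10 genes held in all 26 alternatives, with 8 to 10 of the 10 genes and 4925 to 6856 of all genes called; leaving out 1 library gave 8 to 9 and 6069 to 6702. The number of genes called for a difference between experiments was 0 with edgeR and 5 with the DESeq2 likelihood ratio test; the cause was not tested. With a replicate block 5982 genes and 8 of the 10 were called for NTHi, and 8739 genes and 7 of the 10 for control against airlift. Replicate numbers were not taken as pairs, because same-numbered control and NTHi libraries had correlated deviations of 0.0304 in A, 0.0741 in B and -0.354, 0.0619 and -0.2092 in C. No paired analysis by replicate number was possible for comparisons with fresh cells because their titles give none; those libraries are matched by experiment, through the term for experiment.

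Among the 10 genes, signs that turned were all in values not called, except that of Il34. For airlift against fresh cells, scaling by totals gave Csf3 0.18 and Il34 0.28. For control against airlift, leaving out experiment C gave Csf3 0.37. For control against fresh cells, Csf3 was 0.018 by totals, Osmr was -0.046 with DESeq2 size factors and with the DESeq2 test, -0.044 with halved counts and -0.16 without experiment C, and Il11 was -0.16 without experiment C. Leaving out 1 library gave -0.12 to 0.13 for Osmr (with -0.022 and -0.021 without control replicate 2 or 3 of C) and -0.073 to 0.42 for Il11 there. For NTHi against fresh cells, Il6 was -0.041 without experiment B and -0.015 to 0.46 with 1 library left out. Depth limits Csf3 most, at 17 to 60 counts per untreated library, and Il23a in fresh cells, at 16 to 20.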
